A study of Mus musculus with 12 samples.

Results

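The genes described here are 10 members of the ATF4 stress response: Atf4 itself, 3 further transcription factors (Atf3, Atf5 and Ddit3) and 6 effectors (Ddit4, Trib3, Chac1, Sesn2, Stc2 and Nupr1). They were taken by gene symbol from a count table of 24421 genes, and all 10 were found and passed the filter on low counts, as did 14497 genes in all. The cells were mouse E14 embryonic stem cells with dCas_Alkbh5, a Cas protein without cutting activity joined to Alkbh5, an eraser of the RNA mark m6A. Every group carried dCas_Alkbh5, grew on gelatin in FBS/LIF, received 1 µg of a lenti-sgRNA-BSD guide plasmid and 8 μg/mL blasticidin for 3 days, and was then paused for 5 days with 200 nM INK128, an mTOR inhibitor. The groups differed by guide: a non-targeting guide (NT), Mycn-gRNA2 or Mycn-gRNA3, with 4 libraries each. The question was which RNAs differ when the m6A eraser is directed to Mycn, the gene of a MYC-family transcription factor. No unpaused cells and no cells without dCas_Alkbh5 are in these comparisons.

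ATF4 is a bZIP transcription factor of the integrated stress response. Kinases that sense amino acid shortage, unfolded protein, haem shortage or double-stranded RNA phosphorylate the translation factor eIF2, which slows protein synthesis in general while the Atf4 mRNA is translated better. ATF4 protein then binds composite C/EBP-ATF response elements (CARE) with C/EBP partners and switches on genes of amino acid supply, redox balance and feedback. mTOR also raises ATF4 production in growing cells, and the members Ddit4 and Sesn2 encode proteins that restrain mTOR complex 1. Because much of this control is translational, the mRNA level of Atf4 is not a measure of ATF4 protein, which was not measured here.

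The CARE core was searched in the promoters of the members because it is the sequence through which ATF4 acts. The motif TGATGNAA was read on both strands in the 250 bases before each RefSeq start (GRCm38.p6, the assembly of mm10), which were found for all 10 members, with 2 starts for Atf5. It was present in 3 of these 11 promoters, against 3.45% of 32851 promoters in the whole table. The 3 promoters, of Chac1, Atf3 and Nupr1, are printed 5′ to 3′ along the gene with the match in capitals. Each match reads TTGCATCA on the gene's strand, and it begins 193 bases before the start of Chac1 and 110 bases before those of Atf3 and Nupr1. The promoters of Stc2 and Ddit4 are shown beside them because these genes, with Nupr1, passed the test between guides and NT, and hold no match in this window. The E-box CACGTG, a motif bound by MYC-family proteins that does not overlap the CARE letters, was found in the Nupr1 promoter alone, 225 bases before its start, against 6.02% of all promoters. These matches are descriptions of letters, not evidence of binding.
Chac1, chr2:119350992-119351241 (+ strand): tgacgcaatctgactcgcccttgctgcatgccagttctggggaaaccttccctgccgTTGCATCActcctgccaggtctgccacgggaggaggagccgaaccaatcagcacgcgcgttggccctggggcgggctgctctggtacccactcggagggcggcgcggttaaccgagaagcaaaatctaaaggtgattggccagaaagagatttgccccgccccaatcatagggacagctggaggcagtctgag
Atf3, chr1:191183334-191183583 (- strand): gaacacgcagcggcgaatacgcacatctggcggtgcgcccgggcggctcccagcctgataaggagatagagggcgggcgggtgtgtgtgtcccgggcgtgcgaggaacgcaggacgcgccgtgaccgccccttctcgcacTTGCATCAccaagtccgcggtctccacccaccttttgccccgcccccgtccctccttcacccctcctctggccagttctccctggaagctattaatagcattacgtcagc
Nupr1, chr7:126625471-126625720 (- strand): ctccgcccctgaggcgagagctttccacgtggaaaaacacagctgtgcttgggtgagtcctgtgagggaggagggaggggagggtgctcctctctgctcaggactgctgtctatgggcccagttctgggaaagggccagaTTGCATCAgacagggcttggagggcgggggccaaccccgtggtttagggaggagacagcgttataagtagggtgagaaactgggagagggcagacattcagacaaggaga
Stc2, chr11:31370062-31370311 (- strand): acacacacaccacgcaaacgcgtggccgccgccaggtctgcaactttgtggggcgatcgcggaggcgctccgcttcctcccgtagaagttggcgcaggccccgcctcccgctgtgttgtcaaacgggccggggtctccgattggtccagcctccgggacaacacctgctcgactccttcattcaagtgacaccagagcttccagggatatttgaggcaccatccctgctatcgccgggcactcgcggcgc
Ddit4, chr10:59951771-59952020 (- strand): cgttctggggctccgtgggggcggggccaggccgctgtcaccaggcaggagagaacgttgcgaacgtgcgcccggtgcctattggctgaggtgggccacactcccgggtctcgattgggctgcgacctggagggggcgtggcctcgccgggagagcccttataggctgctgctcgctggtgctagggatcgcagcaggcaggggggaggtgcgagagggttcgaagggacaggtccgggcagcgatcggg

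Libraries held 17248564 to 33819855 reads on mouse genes, and 1.04% to 1.61% of reads fell on the 92 added ERCC RNAs. The targeted gene is described first. Its level does not check the labels, because NT and guide libraries also differed in the Y-linked genes given below. Mycn RNA was 141 ± 4.17 CPM in NT (SD, n = 4), 236 ± 26.7 in Mycn-gRNA2 and 276 ± 16.7 in Mycn-gRNA3, where CPM is the read count scaled to a common library size by TMM factors. It was higher in 8 of 8 guide libraries (log2 fold change 0.86, SE 0.0699, edgeR adjusted p = 3.39e-06). Embryonic stem cell markers were present in every group, with all 8 of 8 detected, 3 lower under the guides (Nanog, Esrrb and Klf4) and a summed level of 4430 to 4960 CPM in NT, 3460 to 4120 in Mycn-gRNA2 and 4160 to 4240 in Mycn-gRNA3. Primitive endoderm markers summed to 37.9 to 56.6 CPM in NT, 79.1 to 109 in Mycn-gRNA2 and 92.2 to 106 in Mycn-gRNA3, with none of 8 at 0, 6 higher and Sox7 lower. Fibroblast markers summed to 1.54 to 2.16 CPM in NT, with Postn and Lum at 0, and to 4.65 to 7.46 CPM in the guide libraries, and all 4 that could be tested were higher. Muscle markers ran from 5.74 to 20.2 CPM in NT and from 16.8 to 35.7 in the guide libraries, neural markers from 211 to 258 and from 172 to 302, and trophoblast markers from 37.3 to 54.8 and from 48.3 to 58, with no gene of these lists at 0 in a whole group. The sums of the last 2 lists overlap, but single genes moved: with both guides against NT, 5 of 8 neural genes were higher (Olig1, Olig2, Pax6, Tubb3 and Neurod1) and Sox1 was lower. Among the 6 tested trophoblast genes Krt8 and Krt18 were higher, and among the 6 tested muscle genes Acta2, Myl3, Myh7 and Cnn1. The 4 Y-linked genes of this male line summed to 0.0449 to 0.181 CPM in NT, against 32.4 to 83.8 in Mycn-gRNA2 and 46.1 to 63.6 in Mycn-gRNA3. This difference coincides with the guides, so the guide and the culture cannot be told apart in any comparison with NT. The part of these markers in the results on the stress genes was not tested.

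One library stood apart in these genes. In Mycn-gRNA2 replicate 1, 6 of the 10 members lay below every NT library in CPM (Atf4, Atf5, Ddit4, Trib3, Chac1 and Sesn2) and 2 lay above. In each of the other 7 guide libraries, 6 to 9 members lay above every NT library and 0 to 3 lay below. The same counts were not made over all genes. The 23583573 reads and 85 mouse reads per ERCC read of Mycn-gRNA2 replicate 1 were within the range of the other guide libraries. Its embryonic stem cell marker sum of 3460 CPM was the lowest of the 12. Results are therefore given with and without it. Because it was picked out by the values of the members themselves, calls made without it are descriptions and not independent support.

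Relative to the transcriptome, 3 of the 10 members rose with both Mycn guides against NT: Nupr1, Stc2 and Ddit4. Nupr1 passed the filter on low counts only through the guide groups, and without it 2 of 9 members were called. Atf4 itself did not pass the test, with a log2 fold change close to 0. No member was lower by edgeR's quasi-likelihood test, by the same test at an unadjusted p under 0.05, or by DESeq2. At the unadjusted threshold 6 were higher, against 20.1% of all genes. Of all 14497 genes tested, 14.9% were called higher and 13% lower at an adjusted p under 0.05, so 3 of 10 is to be read against that. The median log2 fold change was 0.56 over the members and 0 over all genes. Without Mycn-gRNA2 replicate 1, 6 members were called higher, Atf3, Chac1 and Sesn2 being added, while the share of all genes called higher went from 14.9% to 21.9% in that fit.

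**Figure D1:**
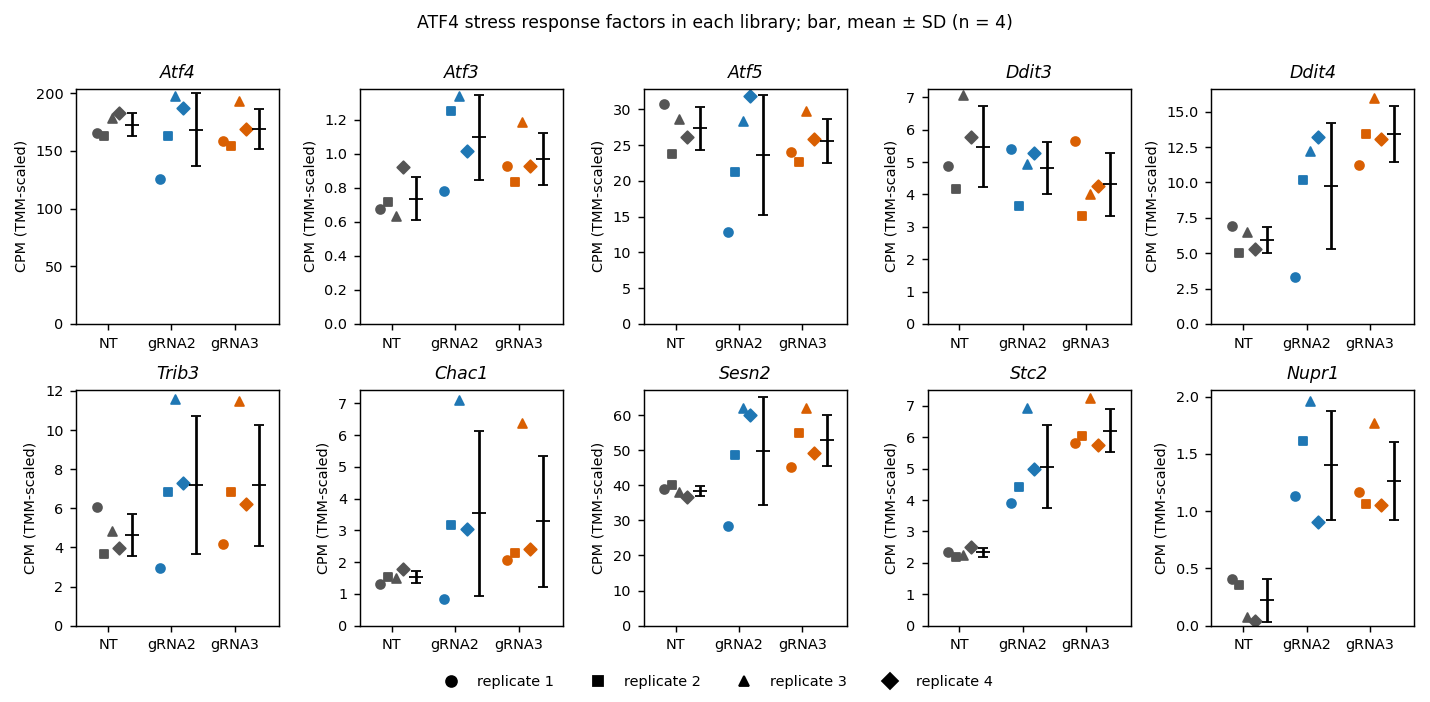
Level of each of the 10 genes in each library (vertical axis, TMM-scaled CPM from 0; marker shape, replicate number; bar, mean ± SD, n = 4). Stc2 and Nupr1 are higher in all 8 guide libraries than in any NT library, while in the Ddit4, Trib3, Chac1 and Sesn2 panels replicate 1 of Mycn-gRNA2 lies below NT.

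Among the transcription factors, Atf4 was by far the most abundant, at 100 ± 5.59 RPKM in NT (CPM per kilobase of exon, SD, n = 4), ahead of Atf5 at 13.7 ± 1.5, Ddit3 at 6.28 ± 1.44 and Atf3 at 0.373 ± 0.065. In NT the Atf4 level was 166, 163, 179 and 183 CPM in replicates 1 to 4. Under Mycn-gRNA2 it was 126, 163, 198 and 187 CPM, and under Mycn-gRNA3 it was 159, 154, 193 and 169 CPM. The NT values lay inside the range of the guide libraries, and the lowest and the highest of the 12 were both from Mycn-gRNA2. The log2 fold change with both guides was −0.04 (SE 0.101, adjusted p = 0.822), and it was −0.04 with each guide alone. Atf4 lies at chr15:80255184-80257545 in mm10, on the + strand.

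Atf5, a bZIP factor that is itself translated better under stress and drives mitochondrial stress genes, varied in the same libraries as Atf4. Its NT level was 30.7, 23.8, 28.7 and 26.1 CPM. It was 12.8, 21.3, 28.3 and 31.8 CPM under Mycn-gRNA2 and 24, 22.7, 29.7 and 25.9 CPM under Mycn-gRNA3. The groups overlapped, with Mycn-gRNA2 replicate 1 at less than any other library, and the log2 fold change was −0.15 (SE 0.176, adjusted p = 0.548). Ddit3, the gene of CHOP, a factor known for its role in stress-induced cell death, was 5.47 ± 1.26 CPM in NT, 4.81 ± 0.808 under Mycn-gRNA2 and 4.31 ± 0.979 under Mycn-gRNA3 (SD, n = 4). These groups also overlapped (log2 fold change −0.27, SE 0.165, adjusted p = 0.252). Exons of Ddit3 share 68 bases with Mars on the opposite strand, and those of Atf5 share 64 with Nup62 and 82 with Nup62-il4i1. Whether the counting used strand is not given in the sources, and reads of these stretches cannot be assigned to one gene.

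Atf3, an early stress-induced repressor, was scarce, with 15 to 21 reads in each NT library and 18 to 33 in each guide library. Its level was 0.677, 0.718, 0.633 and 0.924 CPM in NT. It was 0.783, 1.25, 1.34 and 1.02 CPM under Mycn-gRNA2 and 0.928, 0.838, 1.19 and 0.928 CPM under Mycn-gRNA3. The highest NT library overlapped both guide groups. The log2 fold change with both guides was 0.48 (SE 0.191, adjusted p = 0.0759), and it was 0.55 without Mycn-gRNA2 replicate 1 (SE 0.185, adjusted p = 0.0268). With any other single library left out Atf3 did not pass, with an edgeR adjusted p of up to 0.202. Its promoter holds one of the CARE matches shown above.

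Ddit4 encodes REDD1, a stress-induced inhibitor of mTOR complex 1. Its level was 6.91, 4.98, 6.49 and 5.28 CPM in NT. Under Mycn-gRNA2 it was 3.35, 10.2, 12.2 and 13.2 CPM, and under Mycn-gRNA3 it was 11.2, 13.4, 16 and 13.1 CPM. All guide libraries but one were above all NT libraries, and the exception, Mycn-gRNA2 replicate 1, was the lowest of the 12. Ddit4 rose 1.93-fold with both guides (log2 fold change 0.95, SE 0.265, adjusted p = 0.0162). Without the low library the log2 fold change was 1.10 (SE 0.12, adjusted p = 8.24e-06). The call with both guides was lost without NT replicate 2 or NT replicate 4, with an adjusted p of up to 0.0541.

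Sesn2, the gene of a leucine-binding protein that also holds mTOR complex 1 in check, had the tightest NT values of the 10 genes. They were 39, 40, 38.1 and 36.7 CPM, a coefficient of variation of 3.59%. Under Mycn-gRNA2 the level was 28.5, 48.7, 62.1 and 60 CPM, with a coefficient of variation of 30.9%, and under Mycn-gRNA3 it was 45.1, 54.8, 62 and 49.1 CPM. Of the 8 guide libraries, 7 were above every NT library and 1 below. The log2 fold change was 0.42 (SE 0.161, adjusted p = 0.0693), and 0.51 without Mycn-gRNA2 replicate 1 (SE 0.0849, adjusted p = 0.000304). With any other single library left out Sesn2 did not pass, with an edgeR adjusted p of up to 0.155. DESeq2 called Sesn2 higher with all 12 libraries in the fit.

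Trib3 encodes a pseudokinase that is induced by ATF4 and represses it in return. Its level was 6.09, 3.68, 4.83 and 3.96 CPM in NT. Under Mycn-gRNA2 it was 2.96, 6.85, 11.6 and 7.29 CPM, and under Mycn-gRNA3 it was 4.2, 6.82, 11.5 and 6.2 CPM. The groups overlapped, and replicate 3 was the highest library of each guide. The log2 fold change of 0.63 did not pass the test (SE 0.316, adjusted p = 0.155), nor did the 0.76 found without Mycn-gRNA2 replicate 1 (SE 0.281, adjusted p = 0.0508).

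Chac1 encodes an enzyme that breaks down glutathione, and its promoter holds a CARE match. Its level was 1.31, 1.53, 1.5 and 1.8 CPM in NT. Under Mycn-gRNA2 it was 0.826, 3.16, 7.1 and 3.06 CPM, and under Mycn-gRNA3 it was 2.06, 2.3, 6.37 and 2.4 CPM. All guide libraries but Mycn-gRNA2 replicate 1 exceeded all NT libraries, and replicate 3 of either guide was far above the rest. Its spread was the widest among the members within each guide, with a coefficient of variation of 73.8% under Mycn-gRNA2 and 63% under Mycn-gRNA3, against 13.2% in NT. With that spread, a log2 fold change of 1.15 did not pass the test (SE 0.469, adjusted p = 0.0855). Without Mycn-gRNA2 replicate 1, a library picked out by the members' own values, it was 1.31 and passed (SE 0.408, adjusted p = 0.0254). With any other single library left out Chac1 did not pass, with an edgeR adjusted p of up to 0.17.

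Stc2 encodes stanniocalcin 2, a secreted glycoprotein induced by endoplasmic reticulum stress. Its level was 2.35, 2.2, 2.26 and 2.51 CPM in NT. Under Mycn-gRNA2 it was 3.91, 4.41, 6.93 and 4.98 CPM, and under Mycn-gRNA3 it was 5.81, 6.05, 7.24 and 5.75 CPM. All 8 guide libraries were above all NT libraries, Mycn-gRNA2 replicate 1 included. Stc2 rose 2.41-fold (log2 fold change 1.27, SE 0.153, adjusted p = 6.17e-05), and the adjusted p stayed at or below 0.000557 when any 1 of the 12 libraries was left out. The gene lies at chr11:31359441-31370061 in mm10, on the − strand.

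Nupr1 encodes a small chromatin-associated stress protein. It was represented by 9, 8, 2 and 1 reads in the NT libraries, or 0.406, 0.359, 0.0792 and 0.044 CPM. Under Mycn-gRNA2 it was 1.13, 1.61, 1.96 and 0.906 CPM, and under Mycn-gRNA3 it was 1.17, 1.06, 1.77 and 1.05 CPM. All 8 guide libraries were above all NT libraries. Its log2 fold change of 2.58 was the largest of the 10 genes (SE 0.413, adjusted p = 0.00052). In pooled reads, 266 in the guide libraries against 20 in NT, the scaled ratio was 6.04 with an exact binomial 95% interval of 3.83 to 10.1, which covers counting error only. No NT library reached the 0.417 CPM used by the low-count filter, so Nupr1 entered the test only through the groups in which it was high. Without it, 2 of 9 members were called with both guides, 1 of 9 with Mycn-gRNA2 and 2 of 9 with Mycn-gRNA3. The shares of all genes called higher were 14.9%, 10.1% and 14.8%. Per ERCC read the member counts were 7, 4 and 7 of 9, against 56.4%, 26.3% and 60.7% of all genes.

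The single guides, which share the NT libraries as their reference, gave the following calls. With Mycn-gRNA2, Stc2 (log2 fold change 1.12, adjusted p = 0.000633) and Nupr1 (2.65, adjusted p = 0.00142) rose, 2 of 10 members, or 1 of 9 leaving out Nupr1, which is near the 10.1% of all genes called higher. With Mycn-gRNA3, Ddit4 (1.18, adjusted p = 0.00977), Stc2 (1.41, adjusted p = 6.66e-05) and Nupr1 (2.51, adjusted p = 0.00133) rose, 3 of 10, or 2 of 9 leaving out Nupr1, against 14.8%. Leaving out Mycn-gRNA2 replicate 1 took the Mycn-gRNA2 count from 2 to 6, and the share of all genes called higher from 10.1% to 15.2%, with Ddit4 at 1.01 (adjusted p = 0.000157) and Sesn2 at 0.57 (adjusted p = 0.00108). That library was picked out by the members' own values, so these added calls are descriptions.

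The guides were also compared with each other. No member differed between Mycn-gRNA3 and Mycn-gRNA2 relative to the transcriptome by edgeR's quasi-likelihood test, at an unadjusted p under 0.05 or by DESeq2, and 0% of all genes were called. At the unadjusted threshold 658 genes were higher and 616 lower, and DESeq2 called 1. Ddit4 was 0.46 higher on the log2 scale under Mycn-gRNA3 (SE 0.285, adjusted p = 0.572), Stc2 0.29 higher (SE 0.157, adjusted p = 0.554) and the difference for Nupr1 was −0.14 (SE 0.33, adjusted p = 0.884). The Ddit4 call made with 1 guide is therefore not a tested difference between the guides.

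**Figure D2:**
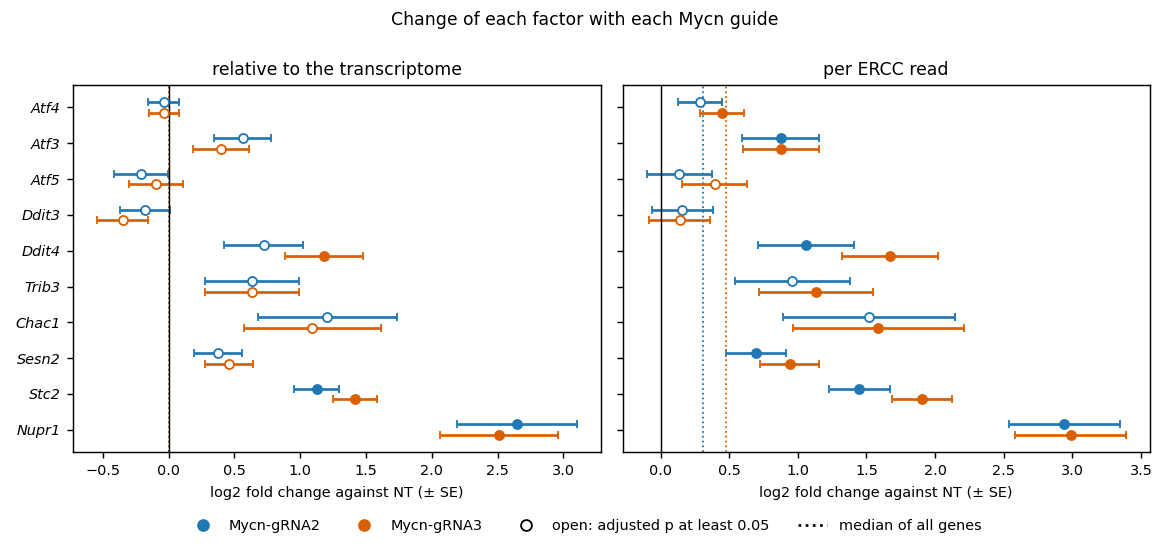
Log2 fold change of each gene against NT with Mycn-gRNA2 and Mycn-gRNA3 (horizontal axis, ± SE), relative to the transcriptome on the left and per ERCC read on the right; filled points have an adjusted p under 0.05 and dotted lines are the medians of all genes. Atf4, Atf5 and Ddit3 lie at or below 0 on the left, and Stc2 and Nupr1 are filled for both guides on both scales.

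Per ERCC read, which sets levels against RNA added in a constant amount to the RNA of 200000 cells, most genes were higher under the guides. Mouse reads per ERCC read ran from 61.3 to 72.1 in NT, from 65.6 to 95.6 under Mycn-gRNA2 and from 83 to 94.5 under Mycn-gRNA3. A difference in cell number and a difference in RNA per cell cannot be told apart in such bulk samples. The median log2 fold change of all genes was 0.39 with both guides, 0.31 with Mycn-gRNA2 and 0.48 with Mycn-gRNA3. On this scale 8 of 10 members were called higher with both guides, all but Atf5 and Ddit3, against 56.4% of all genes. Their median log2 fold change was 0.96.

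Atf4 was 9.91, 12, 11.7 and 11.5 reads per 1000 ERCC reads in NT. It was 10.5, 10.4, 16.3 and 17.9 under Mycn-gRNA2 and 15.1, 14.3, 18.3 and 13.8 under Mycn-gRNA3. All Mycn-gRNA3 libraries exceeded NT, while replicates 1 and 2 of Mycn-gRNA2 did not. Its log2 fold change of 0.37 (SE 0.139, adjusted p = 0.0253) was thus close to the 0.39 of the median gene. Sesn2 (0.82, adjusted p = 0.00205), Atf3 (0.88, adjusted p = 0.00348) and Ddit4 (1.37, adjusted p = 0.00379) lay above that median, as did Trib3 (1.05, adjusted p = 0.0338) and Chac1 (1.55, adjusted p = 0.04).

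Stc2 was 0.152 ± 0.0097 reads per 1000 ERCC reads in NT, 0.413 ± 0.134 under Mycn-gRNA2 and 0.569 ± 0.0893 under Mycn-gRNA3 (SD, n = 4), a log2 fold change of 1.68 (adjusted p = 3.16e-08). Nupr1 had the largest log2 fold change on this scale too, 2.96 (adjusted p = 4.29e-07). Atf5 (0.26, adjusted p = 0.273) and Ddit3 (0.15, adjusted p = 0.504) did not pass, and both lay below the median gene. With Mycn-gRNA2 alone 5 of 10 members were called (Atf3, Ddit4, Sesn2, Stc2 and Nupr1) against 26.3% of all genes, and 8 were called without replicate 1 of that guide, against 30.1% in that fit. With Mycn-gRNA3 8 of 10 were called against 60.7%. Between the guides, 0 of 10 members were called per ERCC read, with 0.0069% of all genes, and 0 by DESeq2. At an unadjusted p under 0.05, 1 of 10 members was higher, against 10.9% of all genes. The calls of Atf4, Trib3 and Chac1 with both guides were each lost when any of several single libraries was left out, 5, 6 and 7 of the 12.

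Several members varied together with Atf4 over the guide libraries, with both guides pooled. Over the 8 guide libraries the log2 CPM of Chac1 had a Pearson correlation with that of Atf4 of 0.943, Atf5 of 0.939, Sesn2 of 0.925, Trib3 of 0.909 and Ddit4 of 0.823. For Atf3 it was 0.778, for Stc2 0.727, for Nupr1 0.44 and for Ddit3 −0.0806. Spearman's rho was 0.905 for Chac1, 0.881 for Trib3, 0.857 for Sesn2, 0.833 for Atf5, 0.81 for Atf3, 0.571 for Stc2, 0.452 for Ddit4, 0.381 for Nupr1 and −0.0952 for Ddit3. Leaving out the 2 libraries farthest from the median Atf4 level, replicates 1 and 3 of Mycn-gRNA2, the Pearson correlation over 6 libraries was 0.891 for Atf5, 0.806 for Chac1, 0.753 for Sesn2, 0.725 for Trib3, 0.628 for Ddit4, 0.524 for Atf3, 0.275 for Stc2, 0.262 for Ddit3 and 0.221 for Nupr1. Atf5, Chac1, Sesn2 and Trib3 thus kept the highest correlations with Atf4, those of Ddit4 and Atf3 were lower, and that of Stc2 rested on the 2 libraries left out. These are descriptions, given with no test, and the values share their library and scaling factor. Genes outside the list followed Atf4 as closely, as given below.

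**Figure D3:**
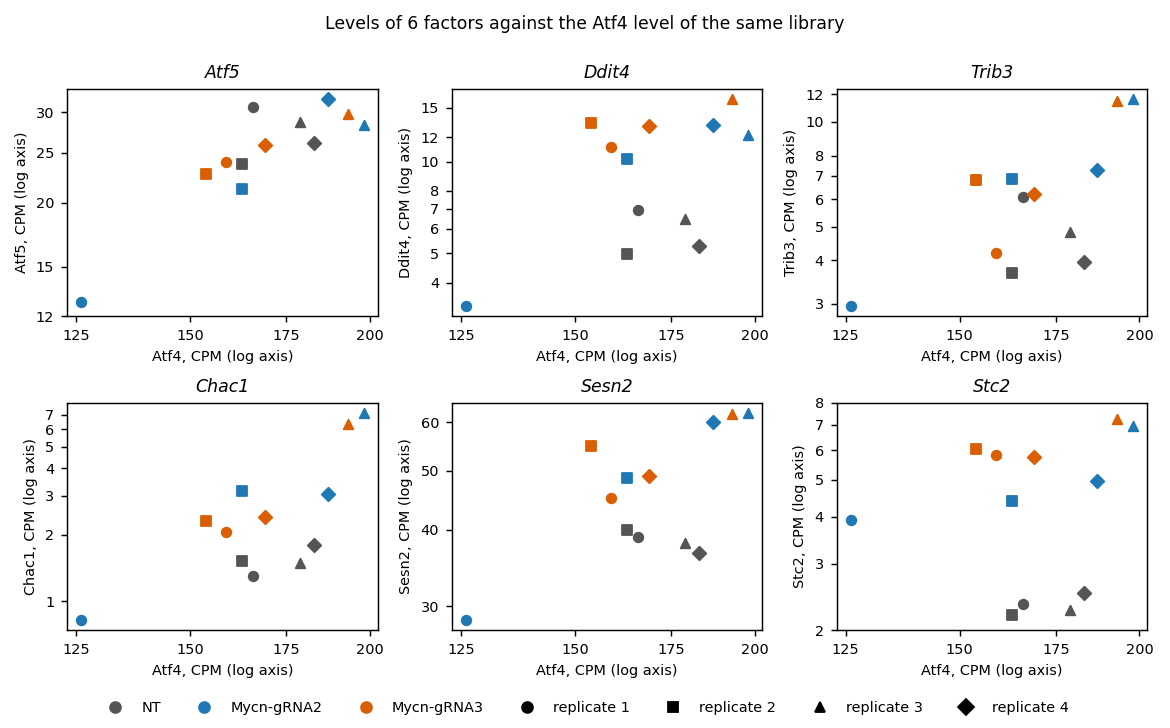
Level of 6 genes against the Atf4 level of the same library, both in TMM-scaled CPM on log axes; colour is the group and marker shape the replicate number. Chac1, Trib3, Sesn2 and Atf5 run with Atf4 among the 8 guide libraries, from Mycn-gRNA2 replicate 1 at 126 CPM of Atf4 to replicate 3 of either guide at 193 and 198 CPM, whereas for Stc2 the NT libraries form a separate low group at similar Atf4 levels.

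Among 11755 other genes whose mean log2 CPM was 1 or more, those most like Atf4 over the 12 libraries were Trp53i11 (Pearson correlation 0.937), Midn (0.934), Cacng7 (0.932), Tmem125 (0.931) and Mapkapk2 (0.924). Of the members only Atf5, at 0.886, came near these values over all 12. Over the 8 guide libraries alone, the 5 genes had correlations with Atf4 from 0.929 (Mapkapk2) to 0.968 (Midn), against 0.943 for Chac1. Following Atf4 in these libraries was thus not confined to the members. The 5 genes were picked as the highest of the 11755 over libraries that include these 8. The share of all genes that followed Atf4 as closely was not counted. Those most like Stc2 were Dyrk3 (0.979), Tpst2 (0.977), Arhgdig (0.976), Polr1b (0.974) and Mycn (0.974), but NT and guide libraries are separate clusters for Stc2. Within the 8 guide libraries alone these 5 correlations ran from 0.845 to 0.904, with Mycn at 0.845.

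Other genes of the pathway were counted by role, with both guides against NT and relative to the transcriptome. In that comparison 14.9% of all genes were called higher. Upstream, 2 of 12 genes of the eIF2 kinases, phosphatase and exchange factor were higher, Eif2b1 (log2 fold change 0.30, adjusted p = 0.00232) and Eif2b2 (0.22, adjusted p = 0.0273), both subunits of the exchange factor that recharges eIF2. None of the 12 was lower by edgeR's quasi-likelihood test or by DESeq2. At an unadjusted p under 0.05, 1 was lower, against 19% of all genes. Of the 4 C/EBP partners, Cebpb (0.77, adjusted p = 0.00253) and Cebpd (1.36, adjusted p = 0.00489) were higher. Cebpd was 1.55 ± 0.449 CPM in NT, 3.54 ± 1.8 under Mycn-gRNA2 and 4.44 ± 0.731 under Mycn-gRNA3 (SD, n = 4), while Cebpa (0.61, adjusted p = 0.195) and Cebpg (−0.10, adjusted p = 0.298) did not pass.

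Of 12 enzyme genes of amino acid and one-carbon supply, 5 were higher and none lower: Psat1, Phgdh and Psph, which are the serine synthesis pathway, the proline pathway gene Aldh18a1, and Mthfd2 of the mitochondrial folate cycle. Psat1 was 75.2 ± 18.5 CPM in NT, 151 ± 34.7 under Mycn-gRNA2 and 144 ± 24.3 under Mycn-gRNA3 (SD, n = 4), and all 8 guide libraries were above all NT libraries (log2 fold change 0.97, SE 0.169, adjusted p = 0.00096). Phgdh (0.93, adjusted p = 0.00413) and Psph (0.86, adjusted p = 0.00246) were above NT in 7 of 8 guide libraries, and Aldh18a1 (0.48, adjusted p = 0.00149) in 8 of 8. Of 10 amino acid transporters 2 were higher, Slc1a4, a carrier of alanine, serine and cysteine (1.07, adjusted p = 0.000308), and Slc43a1, a carrier of large neutral amino acids (0.82, adjusted p = 0.00115). Among 13 genes of tRNA charging and export 1 was higher, Sars, the seryl-tRNA synthetase (0.54, adjusted p = 0.000821).

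Of 10 tested further ATF4 targets, a list with Gdf15, Vldlr, Eif4ebp1 and Sqstm1, none was called by edgeR's quasi-likelihood test or by DESeq2. At an unadjusted p under 0.05, 1 was higher and 1 lower, against 20.1% and 19% of all genes. The median log2 fold change of this list was 0.09. In the IRE1 and ATF6 arms, the other branches of the unfolded protein response, 0 of 14 were higher and 1 was lower, Dnajc3 (−0.23, adjusted p = 0.0137), and the list's median was 0.05. The Dnajc3 call was lost without NT replicate 3 or 4. Of 8 tested paralogs of the members 4 were higher: Ddit4l (1.16, adjusted p = 0.00786), Trib2 (0.74, adjusted p = 0.00098), Sesn3 (0.43, adjusted p = 0.00175) and Trib1 (0.20, adjusted p = 0.0392). The Trib1 call was lost in 9 of the 12 fits that left out 1 library, and the Eif2b2 call in 5. The counts of higher genes are read against the same 14.9% of all genes called higher. The 1 of 14 called lower is read against the 13% of all genes called lower. The 2 of 12 eIF2 genes and 2 of 10 transporters lay near that share, and the 1 of 13 genes of tRNA charging lay below it. Per ERCC read, where 56.4% of all genes were called higher, the list counts were 11 of 12 for amino acid synthesis, 9 of 10 for transporters, 13 of 13 for tRNA charging and 10 of 12 for the eIF2 genes. They were 3 of 4 for C/EBP partners, 6 of 10 for other ATF4 targets, 4 of 8 for paralogs and 5 of 14 for the IRE1 and ATF6 arms, so the last 3 lay near or below that share.

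**Figure D4:**
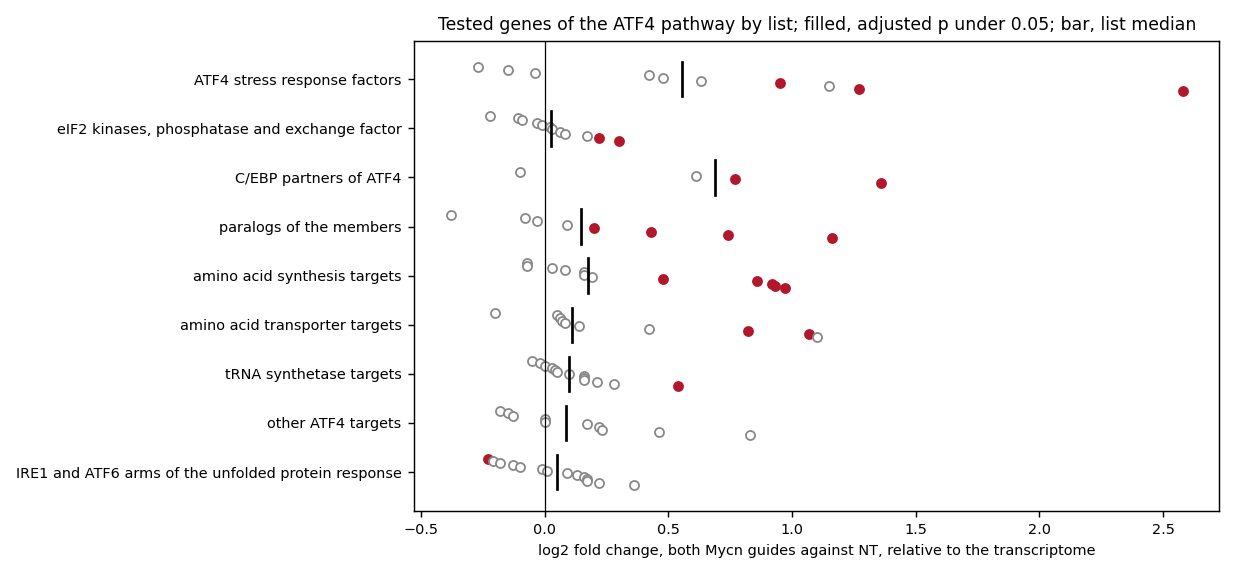
Log2 fold change with both Mycn guides against NT, relative to the transcriptome (horizontal axis), of each tested gene in the 10 stress factors and 8 further lists; filled points have an adjusted p under 0.05 and the bar is the list median. The stress factors spread from −0.27 (Ddit3) to 2.58 (Nupr1) with a median of 0.56, and the list of other ATF4 targets has no filled point.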

How the data were processed

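PolyA RNA with added ERCC RNAs was sequenced from 12 libraries. The authors deposited raw read counts per gene; per the submitters' processing notes, Trim Galore 0.4.0, featureCounts of Subread 1.5.0 and edgeR 3.32.1 were used on mm10. The sources used here name no aligner and no strand setting. A second deposited table of log2 values covers 12042 genes, 7 of the 10 members among them, and each value is log2(count + 0.5) less 1 constant for its library. It served 1 alternative only.

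Groups and replicate numbers came from sample titles. No label calls the replicates separate cultures: p-values here measure only how far these samples spread, and that spread may be technical. Counts were tested with edgeR 4.0.16 (R 4.3.3, robust quasi-likelihood F test, 12 libraries, group term, filterByExpr with a minimum count of 10, Benjamini-Hochberg over all 14497 genes, call at 0.05). Libraries were scaled by TMM ("relative to the transcriptome") or by ERCC totals ("per ERCC read"). A standard error is the log2 fold change divided by the root of F. Scripts were tested on simulated data.

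The members and lists were chosen with earlier results of these data known. Named besides the 10 members were Mycn, every C/EBP partner, up to 4 called genes per list with the lowest adjusted p, and the 5 genes most like Atf4 and Stc2. Mthfd2, Gdf15, Vldlr, Eif4ebp1, Sqstm1 and single marker genes are named outside that rule, chosen after their values were seen. Same-numbered libraries of the guides deviated together from their group means (correlations 0.219 to 0.483), so the numbers may pair Mycn-gRNA2 with Mycn-gRNA3. The main fit holds no block and treats the libraries as independent. A block for the numbers changed no member call between the guides. With both guides against NT, relative to the transcriptome, it took the members called from 3 to 5, and the share of all genes called higher from 14.9% to 16%. Alternatives were DESeq2 1.42.0, limma 3.58.1 on the deposited values, other scalings, no filter, no robust fit, only the groups compared, a replicate block and each library left out.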

Additional observations from a re-analysis of the deposited data

Results flagged for a closer look

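Dixon's ratio, the gap of the extreme library to its nearest neighbour over the range of its group, was computed for each member in each group on both scales, 60 groups in all, of which chance flags about 1 in 20. It passed the 95% critical value for 4 libraries in 3 of them, always through replicate 3 of Mycn-gRNA3. For Chac1 the ratio was 0.922 in CPM and 0.957 in reads per 1000 ERCC reads. For Nupr1 it was 0.831 in CPM. Without that library the log2 fold change of Chac1 with Mycn-gRNA3 against NT, relative to the transcriptome, was 0.55 (edgeR adjusted p = 0.444), against 1.09 with it (adjusted p = 0.135).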

How the results depend on the processing

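Relative to the transcriptome, Stc2 and Nupr1 were called with both guides and with each guide in every fit that left out 1 library. Nupr1 passed the filter on low counts only through the guide groups, and leaving out 1 library does not remove that selection. Over those fits the number of members called with both guides ran from 2 (without NT replicate 2 or 4) to 6 (without Mycn-gRNA2 replicate 1), with Mycn-gRNA2 from 2 to 6 and with Mycn-gRNA3 from 3 to 4. The share of all genes called higher moved as well, from 11.1% to 21.9%, from 7.05% to 15.2% and from 10.8% to 21.9%. Per ERCC read it ran from 5 (without NT replicate 1 or 4 or Mycn-gRNA2 replicate 4) to 9 with both guides, from 2 (without NT replicate 1 or 3 or Mycn-gRNA2 replicate 3 or 4) to 8 with Mycn-gRNA2, with 3 without NT replicate 4, and from 5 (without NT replicate 1 or Mycn-gRNA3 replicate 3) to 9 with Mycn-gRNA3, while the share of all genes ran from 37.4% to 69.2%, from 12.4% to 53.6% and from 46.2% to 67.5%. No member was called between the guides in these fits, in which 0% to 13.6% of all genes were higher per ERCC read (the latter without Mycn-gRNA2 replicate 4). The limma test on the deposited log2 values, which hold 7 of the members, called 5 with both guides, 1 with Mycn-gRNA2 and 5 with Mycn-gRNA3, against 61.1%, 22.6% and 68.1% of all its genes.

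Where 1 library was left out, signs turned in uncalled values near 0. Relative to the transcriptome, Atf4 ran from −0.079 to 0.022 with both guides and from −0.123 to 0.079 with Mycn-gRNA2 (both positive without Mycn-gRNA2 replicate 1), and from −0.107 to 0.003 with Mycn-gRNA3. Nupr1 between the guides ran from −0.35 to 0.086, and per ERCC read from −0.188 to 0.286. Per ERCC read, Atf5 with Mycn-gRNA2 ran from −0.164 to 0.338 and Ddit3 with Mycn-gRNA3 from −0.042 to 0.297. Per ERCC read, the calls of Ddit4, Sesn2 and Atf3 with Mycn-gRNA2 were lost in 9, 5 and 4 of the 12 such fits, and those of Chac1, Trib3 and Atf4 with Mycn-gRNA3 in 9, 6 and 2. The causes were not tested.

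Deviations of same-numbered libraries of NT and a guide had correlations of 0.0559 to 0.361 with Mycn-gRNA2 and 0.0159 to 0.225 with Mycn-gRNA3. These ranges overlap the 0.219 to 0.483 between the guides, so they do not settle whether NT libraries are paired with guide libraries. Over all pairs of groups, guide with guide included, a library was most like its own number in 13 of 24 comparisons. With the replicate block, 5 members were called relative to the transcriptome with both guides and 5 with Mycn-gRNA3 (Chac1 and Sesn2 being added), and 3 with Mycn-gRNA2, against 16%, 16.3% and 11% of all genes. Per ERCC read it gave 8, 8 and 7, against 51%, 56.6% and 21.6%. Depth limits Atf3 and Nupr1 most, with at most 49 reads in any library.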
